A study of Homo sapiens with 32 samples.

Results

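The 39 genes described here carry glucose through glycolysis to lactate or take part in the response of cells to low oxygen. They were taken by symbol from a given list, which was chosen with earlier results of these data known. All 39 were found among the 28278 gene symbols of each count table. By Ensembl gene, all 39 were also among the 60107 genes of the STAG2 knockdown table. By role they are 4 carriers of glucose or lactate, 11 genes of upper glycolysis, 6 of lower glycolysis, 4 that set the fate of pyruvate, 4 of oxygen sensing and 10 other genes known to respond to low oxygen. RNA was sequenced from 3 Ewing sarcoma lines, A673, SK-N-MC and A4573, to compare cells with and without the cohesin subunits STAG2 or STAG1 or the Polycomb subunits EZH2 or SUZ12. None of the labels names a low-oxygen culture.

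In A673, every KO clone was made from a clone with a doxycycline-inducible Cas9 at the AAVS1 locus, which is itself the unedited control (WT clone, genotype iCas9), and each KO library is labelled as another clone. Controls were 2 WT clone libraries and 1 library of parental A673 in each of experiments 1 and 2, and 1 of each in experiment 3. STAG2 KO cells gave 2 libraries in experiment 1 and 3 in experiment 2, EZH2 KO and SUZ12 KO cells 3 each in experiment 2, and STAG1 KO cells 3 in experiment 3. The STAG2 KO libraries of experiment 1 are numbered 5 and 24 and those of STAG1 KO cells 1, 5 and 7 in the count tables, and nothing ties these numbers to those the labels give the clones. In experiment 4, A673 cells were mock transfected (siC, 3 libraries) or transfected with siRNA against STAG2 (siSTAG2, 3 libraries), and which of the harvest times in the methods applies to these libraries is not given in the sources used here. SK-N-MC was sequenced as 1 iCas9 library with STAG2 and 1 STAG2 KO library, and A4573, which lacks STAG2, as 1 iCas9 library and 1 library of cells with STAG2 put back by knock-in (STAG2 KI). KO groups hold separate clones, so their spread includes that between clones. Nothing says that the WT clone libraries of an experiment, or the libraries of siC or of siSTAG2, came from separate cultures, and the spread between those may be technical.

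Glycolysis splits glucose into pyruvate in the cytosol. Hexokinase traps glucose, phosphofructokinase commits it, aldolase splits the sugar and pyruvate kinase ends the path, after which lactate dehydrogenase makes lactate or the pyruvate dehydrogenase complex feeds the mitochondria. Prolyl hydroxylases of the EGLN family mark HIF-α for destruction when oxygen is present. When oxygen is short, HIF-α persists, binds a short DNA element with the core ACGTG or GCGTG and raises transporters, glycolytic enzymes, PDK1, CA9, VEGFA and other genes. STAG1 and STAG2 are alternative subunits of cohesin, which folds chromatin into loops, and EZH2 and SUZ12 are subunits of PRC2, which silences genes by methylating histone H3. STAG2 is lost in part of Ewing sarcomas, tumours driven by the fusion EWS::FLI1.

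The 22 libraries of A673 clones and their controls held 15734628 to 20663679 counts, the 4 isogenic libraries 29322507 to 32261248, and the 6 knockdown libraries 6852340 to 8184632 reads recovered from the deposited values. The targeted gene was lower with log2 fold changes of −1.84 (SE 0.318, adjusted p = 0.00391) in STAG2 KO, −1.98 (SE 0.203, adjusted p = 0.000137) in EZH2 KO, −1.90 (SE 0.233, adjusted p = 0.000299) in SUZ12 KO and −2.72 (SE 0.0854, adjusted p = 4.01e-18) in siSTAG2 cells. Within experiment 1 STAG2 itself was not called, −1.37 (SE 0.566, adjusted p = 0.115), and within experiment 2 it was, −2.20 (SE 0.167, adjusted p = 0.00233). STAG1 in STAG1 KO cells was not called, −0.80 (SE 0.5100, adjusted p = 0.376), and the library labelled STAG1 KO 1 held 61.1 CPM (counts scaled to a common library size by edgeR's TMM factors) beside 57.4 and 69.1 in the controls. STAG2 KO library 24 of experiment 1 held 183 CPM of STAG2 beside 293, 301 and 281 in its controls, and the library labelled SK-N-MC STAG2 KO 184 beside 293. Counts per gene do not show whether the RNA was edited or made protein. The paper reports that A673 STAG2 KO clones were checked by sequencing and immunoblot. It also shows immunoblots of STAG1 KO clones and of SK-N-MC cells. Ewing sarcoma identity genes summed to 2212 to 4852 CPM in the A673 libraries, with CCND1 the highest of them at 1325 to 3569. However, CD99, the surface marker of this tumour, is listed at 0 in all 22. The identity genes summed to 2387 to 3065 CPM in STAG2 KO libraries of experiment 1 against 3336 to 3727 in controls. In experiment 2 they summed to 2212 to 2234 against 2751 to 3000. In the other KO groups the sums overlapped those of the controls. Gene by gene, 3 of 8 tested were higher and 2 lower in STAG2 KO, beside 5.87% and 6.34% of all genes. Genes that define other cell types summed to 35 to 49.9 CPM in EZH2 KO and 34.03 to 48.9 in SUZ12 KO libraries, against 10.9 to 14.2 in their controls, most of it from CD79A, a B cell gene, and to 23.3 to 28.3 in STAG2 KO libraries of experiment 1 against 8.55 to 13.1 in their controls. STAG2 KO library 5 of experiment 2 stood apart from KO libraries 2 and 3, with a mean chi-square per gene of 140 and 113 against 25.7 between those, so results that rest on it are also given without it. In RNA from whole cultures, fewer cells of a type and less RNA per cell cannot be told apart.

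Sequences upstream of the genes were searched for the core of the HIF element. Its part in any change was not tested. RefSeq windows from 250 bases before to 50 after the start (GRCh38.p14) were found for 34 of the 39 members, 62 windows in all. The letters ACGTG, on either strand, occurred in 24 of the 62 windows (38.7%) and in 7518 of 35116 windows of all genes (21.4%). GCGTG occurred in 41.9% and 36.5%, and CACGTG, which holds ACGTG on both strands, in 12.9% and 7.26%. Of the 11 members that rose in EZH2 KO or SUZ12 KO cells, SLC2A3, VEGFA and NDRG1 had no window. EPAS1, EGLN3 and P4HA2 had no ACGTG before the start, and the other 5 had one in at least 1 window. By gene, 20 of the 34 members with a window (58.8%) held ACGTG in at least 1 window, beside 24.9% of 27305 genes. The 34 members had 62 windows and the 27305 genes 35116, so a member had more windows in which to match. A match was thus not particular to the members that rose. The window of EPAS1 held 1 GCGTG, and those of EGLN3 and P4HA2 none. A match is a description of the letters and not a site shown to be bound. Where a gene had several windows, the one with the most ACGTG before the start was used. SLC16A3 had 5 windows and PDK1 and LDHA 2 each, and their other windows held no ACGTG. For the 5 members that rose and had a match, and for LDHA, which no comparison called, the match nearest the start is shown in capitals (ACGTG, or CACGT where it lies on the other strand), 5′ to 3′ on the gene's strand.
SLC16A3 (chr17:82228975-82229003, + strand): cgtgcgcgggggACGTGccgcgccagcga
ALDOC (chr17:28576907-28576935, − strand): ccccggaggagtCACGTagctctgcgaca
PDK1 (chr2:172556070-172556089, + strand): cgcCACGTccctCACGTacc
CA9 (chr9:35673898-35673926, + strand): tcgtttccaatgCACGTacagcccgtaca
ANKRD37 (chr4:185396686-185396714, + strand): cagtgtttgtgtACGTGcggccgtggcgg
LDHA (chr11:18394478-18394506, + strand): cgtgggttcccgCACGTccgccggccccc

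These matches lay 55 bases before the RefSeq start of the window used in SLC16A3, 28 in ALDOC, 8 in PDK1, with a further one at 17, 18 in CA9, 143 in ANKRD37 and 73 in LDHA. By GENCODE 44 the stretches of ALDOC and PDK1 also overlapped an exon of a longer transcript of the same gene, that of PDK1 one of the antisense gene PDK1-AS1 as well, that of CA9 an exon of the neighbour ARHGEF39 on the other strand, and those of SLC16A3, ANKRD37 and LDHA no exon. In the window used, the whole stretch before the start held 5 matches in LDHA, 3 in ALDOC and ANKRD37, 2 in SLC16A3 and PDK1 and 1 in CA9, with CACGTG counted on both strands.

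In control cells the enzymes of the trunk of glycolysis were the most abundant members. Levels are in this normalised CPM, and per kilobase of exon where genes are compared. GAPDH, the dehydrogenase that opens lower glycolysis, had the highest median over the 8 control libraries, 1381 CPM per kb. ENO1 (446), LDHB (334), TPI1 (329), PGAM1 (209.9), LDHA (205) and PKM (203) came next. The glucose carrier SLC2A1 stood at 8.06 and the lactate carrier SLC16A1 at 30.01 CPM per kb, above SLC2A3 (2.27) and SLC16A3 (1.24). HIF1A stood at 39.4 CPM per kb, while EPAS1, which encodes the other main HIF-α subunit, was close to the limit of measurement, at 0.0297. The lowest other members were EGLN3 (0.113), ANKRD37 (0.259), PDK3 (0.353) and NDRG1 (0.448). These libraries keep no strand, and by the GENCODE 44 annotation 18 members overlap a gene on the opposite strand, 10 one on the same strand, and 18 have a pseudogene named after them, so their counts may hold reads of another gene. The overlap took 35.7% of the exons of CA9 (with ARHGEF39), 42.8% of those of ALDOA, 55.8% of those of EGLN1, 40.3% of those of ANKRD37 and 33.4% of those of LDHB. ALDOA was 10.9 times higher in siC libraries (CPM of the recovered reads) than in the controls of the count tables, and PGAM1 stood at 5.39 against 533. The cause was not tested, and levels were not compared between the tables.

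The controls themselves differed between experiments in hypoxia-response genes. Those of experiment 1 were over 2-fold higher than those of experiment 2, with no overlap, for 8 of 37 members with a mean of at least 1 CPM (SLC16A3, ALDOC, PDK1, PDK3, CA9, VEGFA, NDRG1 and P4HA2), and lower for PKM. The same held for 10.4% and 3.59% of all genes. The controls of experiment 3 were higher than those of experiment 2 for 9 members and lower for 5, beside 14.7% and 8.8% of all genes. Between experiments 1 and 3 the count was 0 in both directions, beside 1.96% and 2.13%. CA9, the carbonic anhydrase that moves acid out of hypoxic cells, was at 6.26, 4.95 and 9.898 CPM in the controls of experiment 1, 12.3 and 10.5 in those of experiment 3 and 0, 0 and 0.0554 in those of experiment 2. In each list of control values the parental library comes last, and KO libraries follow the order of their numbers. Its counts in the controls of experiment 2 were 0, 0 and 1, so those of experiment 1 were at least 40.0-fold higher, measured against a floor of 3 counts per library. ALDOC, the brain-type aldolase, was at 54.9, 60.1 and 113 CPM in the controls of experiment 1, 105 and 84.3 in those of experiment 3 and 10.2, 8.61 and 6.92 in those of experiment 2. PKM, the pyruvate kinase of most tissues, went the other way, with 1416, 1457 and 2029.5 CPM in experiment 1 and 3688, 3233 and 3639.8 in experiment 2. Each KO was compared with the controls of its own experiment.

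**Figure D1:**
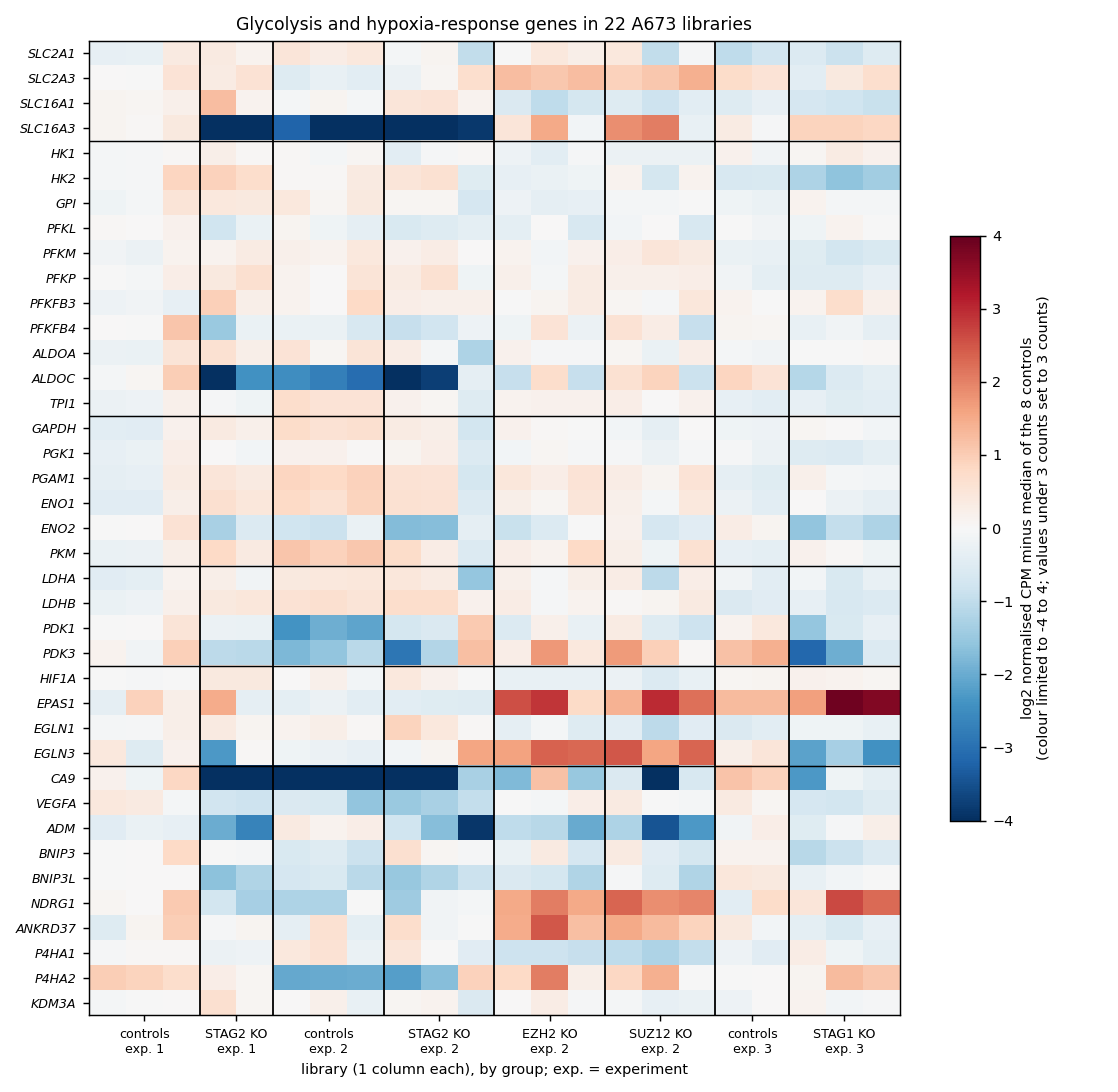
Each row is a member and each column 1 of the 22 A673 libraries, and the colour is the log2 of its normalised CPM minus the median of the 8 controls, limited to −4 to 4 with values under 3 counts set to 3 counts. The row of CA9 is dark blue in the controls of experiment 2 and in STAG2 KO cells except library 5 of experiment 2, and SLC2A3, EGLN3 and NDRG1 are red in all 6 EZH2 KO and SUZ12 KO libraries.

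STAG2 KO cells were first compared over both experiments together, with the experiment as a term. Of 38 members tested, 0 were higher and 3 lower (7.89%), beside 5.87% and 6.34% of 14215 genes. The median log2 fold change was −0.03 for members and 0.01 for all genes, so the members as a whole lay near the background. ADM (chr11:10305073-10307397 of GRCh38), which encodes the vasodilating peptide adrenomedullin, had 5.05, 5.69 and 5.54 CPM in controls and 1.09 and 1.74 in STAG2 KO libraries of experiment 1. In experiment 2 it had 8.89, 7.65 and 8.31 CPM in controls and 3.97, 2.099 and 0.4695 in STAG2 KO libraries. All 5 KO libraries lay under all 6 controls, and ADM fell by 1.92 (SE 0.416, adjusted p = 0.0125) on the log2 scale. BNIP3L, a receptor for the removal of mitochondria, had 165, 166 and 168 CPM in controls and 71.2 and 53.2 in KO libraries of experiment 1, and 104, 108 and 77.7 CPM in controls and 57.9, 71.95 and 90.5 in KO libraries of experiment 2, where the groups overlapped. It fell by 0.82 (SE 0.214, adjusted p = 0.0296). PFKL, the liver-type phosphofructokinase, had 207, 202 and 225 CPM in controls and 163 and 115 in KO libraries of experiment 1, and 212, 175 and 156 CPM in controls and 131, 139.8 and 153 in KO libraries of experiment 2. It fell by 0.45 (SE 0.125, adjusted p = 0.0385), with the KO libraries under the controls within each experiment. The count rested on single libraries. It was 1 without any one of the 3 controls of experiment 1, WT clone library 1 or 2 of experiment 2, KO library 24 of experiment 1 or KO library 2 of experiment 2, and 13 without KO library 5 of experiment 2. Scaled by library size alone, 2 members were higher and 1 lower.

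Within experiment 1, 2 of 38 members were higher (5.26%) and 9 lower (23.7%), beside 12% and 13.9% of 14145 genes. The median was 0.11 for members and −0.02 for all genes. SLC16A3 (chr17:82217934-82261129), the lactate carrier of glycolytic cells, had 12.3, 11.7 and 14.9 CPM in controls and 0.2301 and 0.225 in STAG2 KO libraries. It had the largest fitted change among members above 3 counts in both groups, −5.79 (SE 0.325, adjusted p = 0.00247). Both KO values lay just above the floor of 3 counts, 0.173 CPM in library 5 and 0.169 in library 24, so the size of this change is uncertain. CA9 (chr9:35673928-35681159) had 6.26, 4.95 and 9.898 CPM in controls and 0 counts in both KO libraries, at least 41.2-fold lower against the floor of 3 counts per library (adjusted p = 0.00667). ALDOC (chr17:28573115-28576948) fell by 3.51 (SE 0.661, adjusted p = 0.0196), from 54.9, 60.1 and 113 CPM in controls to 10.6 and 2.64 in KO libraries. These genes serve lactate export, acid balance and the aldolase step, and for each the KO libraries lay fully under the controls. ENO2, the neuronal enolase, had 170.1, 173 and 256 CPM in controls and 117 and 70.1 in KO libraries, a change of −1.09 (SE 0.292, adjusted p = 0.0429). PDK3, which inhibits pyruvate dehydrogenase, had 6.73, 5.58 and 11.97 CPM in controls and 2.93 and 2.98 in KO libraries, a change of −1.45 (SE 0.405, adjusted p = 0.0473). Both are isoform genes of the later path, whose KO libraries also lay under all controls. VEGFA (chr6:43770184-43786487), the main growth factor for blood vessels, fell by 1.03 (SE 0.174, adjusted p = 0.0157), from 496, 478 and 350.3 CPM to 211 and 219. P4HA2, a collagen prolyl hydroxylase, had 25.9, 24.3 and 21.6 CPM in controls and 14.1 and 15.9 in KO libraries, a change of −0.67 (SE 0.159, adjusted p = 0.0317). Within this experiment ADM changed by −1.93 (SE 0.326, adjusted p = 0.0159) and BNIP3L by −1.41 (SE 0.1495, adjusted p = 0.00533).

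The members that rose in experiment 1 have regulatory roles. PFKFB3, which makes the activator of phosphofructokinase, had 76.2, 79.7 and 69.6 CPM in controls and 105 and 171 in STAG2 KO libraries, a change of 0.88 (SE 0.208, adjusted p = 0.032). HIF1A had 200.5, 198 and 203 CPM in controls and 267 and 266 in STAG2 KO libraries, a change of 0.41 (SE 0.0891, adjusted p = 0.0258). GAPDH, PGK1, PGAM1, ENO1, PKM, LDHA and TPI1, the abundant enzymes of the trunk, were not called. The 2 WT clone libraries of this experiment differed less than others, their chi-square averaging 1.33 per gene where other pairs of libraries of a group gave 9.41 to 140, and with them summed into 1 library the comparison over both experiments called 1 member. The sum of genes that define other cell types was also higher in these KO libraries (23.3 to 28.3 against 8.55 to 13.1 CPM), and its part in the result was not tested.

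Within experiment 2, no member passed (0 of 37 by edgeR), beside 1.83% higher and 1.86% lower of 13383 genes. At an unadjusted p under 0.05 there were 8 members (21.6%), beside 23.7% of all genes. The median was −0.10 for members and 0.03 for all genes. STAG2 KO library 5 had the highest level of the 3 KO libraries for 8 of the 9 genes that fell in experiment 1, all but ADM. ALDOC was at 10.2, 8.61 and 6.92 CPM in controls and 3.37, 4.25 and 44.7 in KO libraries 2, 3 and 5. P4HA2 was at 3.17, 3.25 and 3.32 CPM in controls and 2.87, 4.04 and 24.9 in KO libraries, and CA9 had 0 counts in KO libraries 2 and 3 and 2.24 CPM in library 5. The trunk enzymes were low in that library. LDHA was at 1629, 1649.7 and 1681 CPM in controls and 1680.2, 1557 and 420.2 in KO libraries 2, 3 and 5, and GAPDH at 5436, 4909 and 5121 in controls and 4144, 3871 and 1957 in KO libraries. PDK1, the kinase that shuts pyruvate dehydrogenase in hypoxia, had the largest fitted change of the members tested in experiment 2. It had 5.55, 7.65 and 6.81 CPM in controls and 18.2, 19.8 and 60.6 in KO libraries, a log2 fold change of 2.37 (SE 0.512, adjusted p = 0.0532). Over both experiments without library 5, 5 members were higher (SLC16A1, PFKP, LDHB, HIF1A and EGLN1) and 8 lower (SLC16A3, PFKL, ALDOC, ENO2, CA9, VEGFA, ADM and BNIP3L), and the calls over all genes rose from 1736 to 4219.

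The difference between the effects in experiments 1 and 2 was tested as a contrast and gave 0 of 38 members by edgeR, beside 0% of 14616 genes. At an unadjusted p under 0.05 it gave 15 members (39.5%), beside 30.7% of all genes, and by DESeq2 10 members, beside 2216 genes. Without KO library 2 of experiment 2 it gave 7 members and 1438 genes, and without library 5 it gave 4 members and 706 genes. ADM changed by −1.93 in experiment 1 and −1.89 in experiment 2, a difference of −0.01 (SE 0.6695, adjusted p = 0.995), while SLC16A3 changed by −5.79 and −1.09, a difference of −4.65 (SE 1.01, adjusted p = 0.0795). In experiment 2 the controls of SLC16A3 were themselves low, at 1.25, 0.574 and 0.665 CPM. Scaling by library size alone moved the median of all genes in this contrast from −0.07 to −0.32.

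**Figure D2:**
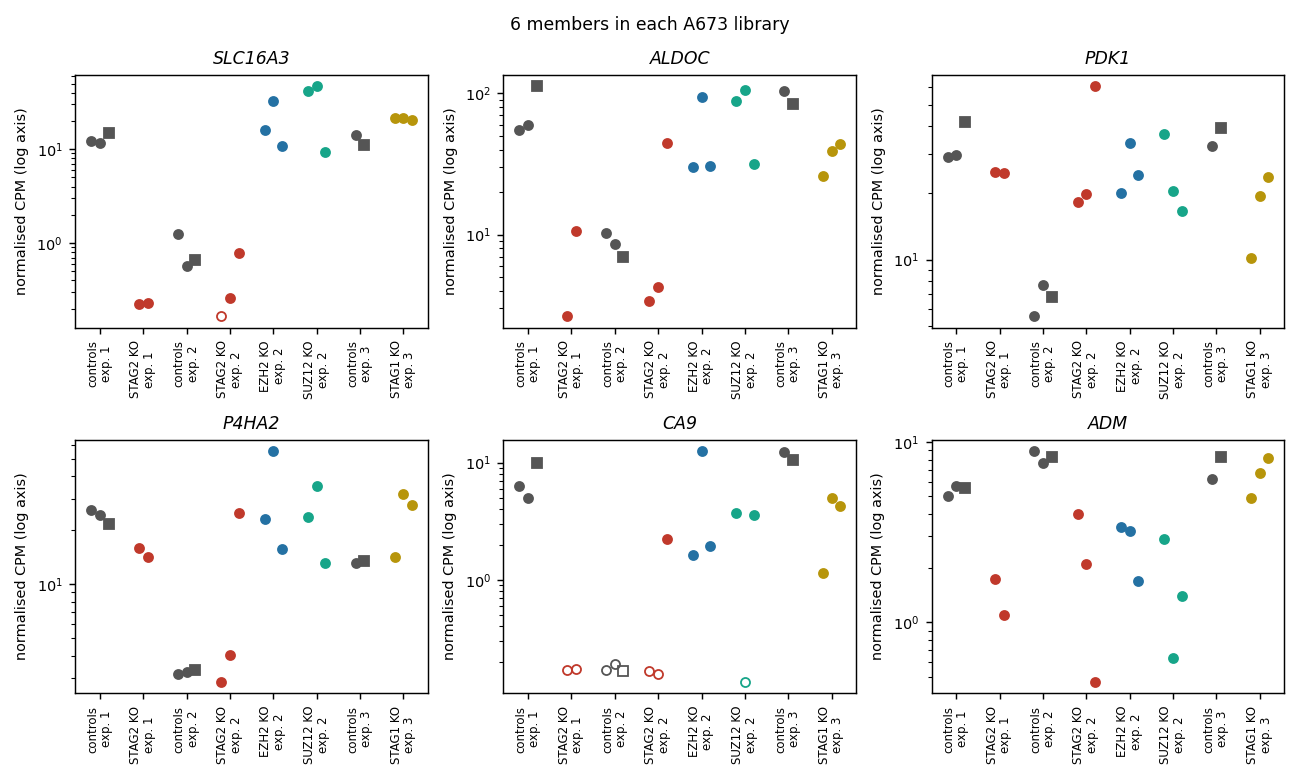
Normalised CPM (log axis) of 6 members in each A673 library, with circles for clones, squares for parental cells, and open symbols for values under 3 counts, which are drawn at the level of 3 counts. In experiment 2, STAG2 KO library 5 lies above the other STAG2 KO libraries for ALDOC (44.7 CPM), PDK1 (60.6), P4HA2 (24.9) and CA9 (2.24), and all EZH2 KO and SUZ12 KO libraries lie above the controls for SLC16A3, ALDOC, PDK1 and P4HA2.

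In cells without EZH2 or SUZ12, the carriers SLC2A3 and SLC16A3, the kinase gene PDK1, EGLN3, EPAS1, VEGFA, NDRG1 and P4HA2 were higher in both, and SLC16A1 and P4HA1 lower in both. In EZH2 KO cells 10 of 39 members rose (25.6%) and 2 fell (5.13%), beside 12% and 3.69% of 15130 genes. In SUZ12 KO cells 9 rose (23.1%) and 4 fell (10.3%), beside 14.7% and 5.87%. The median log2 fold change of members was −0.08 in EZH2 KO and −0.11 in SUZ12 KO, against 0.04 and 0.01 for all genes. With scaling by library size alone the median of all genes became 0.20 and 0.19, and SUZ12 KO cells had 9 members higher and 2 lower. Both comparisons used the same 3 controls, those of experiment 2, in which SLC16A3, ALDOC, PDK1, PDK3, CA9, VEGFA and P4HA2 were lower than in the controls of experiments 1 and 3. Genes that define other cell types were higher in these libraries too. Of the 8, 5 had at most 3 counts in every control, 2 in every EZH2 KO and 1 in every SUZ12 KO library, CD79A ran from 32.3 to 46.7 CPM in EZH2 KO and from 30.2 to 40.4 in SUZ12 KO against 9.44 to 13.3 in controls, and CD3E had 0 counts in all. Their part in the result was not tested.

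Among carriers, SLC2A3, a high-affinity glucose carrier, was at 11.6, 13.5 and 12.3 CPM in controls, 39.1, 34.5 and 38.9 in EZH2 KO and 31.3, 34.4 and 43.7 in SUZ12 KO libraries. All 6 KO libraries lay above the controls, with log2 fold changes of 1.68 (SE 0.231, adjusted p = 0.000854) in EZH2 KO and 1.62 (SE 0.231, adjusted p = 0.000699) in SUZ12 KO. SLC16A3 was at 1.25, 0.574 and 0.665 CPM in controls, 15.99, 32.7 and 10.7 in EZH2 KO and 41.8, 47.1 and 9.39 in SUZ12 KO libraries. It had the largest fitted rise among members above 3 counts in the controls, 4.66 (SE 0.777, adjusted p = 0.00234) in EZH2 KO and 5.36 (SE 0.795, adjusted p = 0.000869) in SUZ12 KO. SLC16A1, the more general lactate carrier, went the other way, with 179, 207 and 181 CPM in controls, 128, 93.7 and 118 in EZH2 KO and 134, 107 and 142 in SUZ12 KO libraries. Its log2 fold changes were −0.66 (SE 0.156, adjusted p = 0.0159) in EZH2 KO and −0.49 (SE 0.156, adjusted p = 0.0439) in SUZ12 KO. These lactate carriers moved in opposite directions in both KOs, with SLC16A1 the more abundant per kilobase in controls.

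Among the 17 genes of upper and lower glycolysis, ALDOC in SUZ12 KO was the only call in either KO, and others were called with STAG2 KO library 5 left out of the fit. It was at 10.2, 8.61 and 6.92 CPM in controls, 30.4, 94.5 and 30.6 in EZH2 KO and 88.4, 107 and 31.7 in SUZ12 KO libraries, and all 6 KO libraries lay above the controls. For ALDOC the log2 fold changes were 2.69 (SE 0.902, adjusted p = 0.0657) in EZH2 KO and 3.21 (SE 0.918, adjusted p = 0.0284) in SUZ12 KO. GAPDH was at 5436, 4909 and 5121 CPM in controls, 3714, 3368 and 3239 in EZH2 KO and 3064, 2574 and 3342 in SUZ12 KO libraries. The KO libraries lay under the controls without passing the test, −0.50 (SE 0.236, adjusted p = 0.182) in EZH2 KO and −0.71 (SE 0.237, adjusted p = 0.0528) in SUZ12 KO. For the fate of pyruvate, PDK1 (chr2:172555373-172608669) was at 5.55, 7.65 and 6.81 CPM in controls, 19.97, 33.7 and 24.1 in EZH2 KO and 36.7, 20.5 and 16.6 in SUZ12 KO libraries. It rose by 2.05 (SE 0.474, adjusted p = 0.0136) in EZH2 KO and 1.95 (SE 0.473, adjusted p = 0.0129) in SUZ12 KO. PDK3 was at 1.76, 2.04 and 2.88 CPM in controls, 7.33, 20.5 and 8.25 in EZH2 KO and 19.9, 11.9 and 6.39 in SUZ12 KO libraries, and its changes did not pass, 2.52 (SE 0.8501, adjusted p = 0.0667) in EZH2 KO and 2.58 (SE 0.851, adjusted p = 0.0516) in SUZ12 KO. Both PDK genes had all 6 KO libraries above the controls.

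In oxygen sensing, EPAS1 and EGLN3 rose and HIF1A was not called. EGLN3, itself a hypoxia-induced prolyl hydroxylase, was at 0.736, 0.701 and 0.665 CPM in controls, 2.54, 4.23 and 4.08 in EZH2 KO and 4.61, 2.48 and 4.13 in SUZ12 KO libraries. It rose by 2.44 (SE 0.499, adjusted p = 0.00704) in EZH2 KO and 2.48 (SE 0.499, adjusted p = 0.00489) in SUZ12 KO. EPAS1 had 1, 1 and 1 counts in the controls, 1.34, 1.63 and 0.379 CPM in EZH2 KO and 0.582, 1.76 and 1.02 CPM in SUZ12 KO libraries. It was thus at least 6.35-fold higher in EZH2 KO (adjusted p = 0.00333) and at least 6.37-fold higher in SUZ12 KO (adjusted p = 0.00242), and stayed under 2 CPM in every library of experiment 2. HIF1A was at 204, 236 and 190.0 CPM in controls, 167, 167 and 167 in EZH2 KO and 172, 139.9 and 166 in SUZ12 KO libraries. All KO libraries lay under the controls, with changes of −0.24 (SE 0.136, adjusted p = 0.254) in EZH2 KO and −0.33 (SE 0.136, adjusted p = 0.116) in SUZ12 KO. EGLN1, the main oxygen sensor among the prolyl hydroxylases, was at 73.97, 78.3 and 68.8 CPM in controls, 51.7, 62.7 and 46.7 in EZH2 KO and 49.6, 32.1 and 48.7 in SUZ12 KO libraries. It fell in SUZ12 KO, with log2 fold changes of −0.37 (SE 0.219, adjusted p = 0.282) in EZH2 KO and −0.69 (SE 0.2195, adjusted p = 0.0444) in SUZ12 KO.

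Of the 10 other hypoxia-response genes, 5 rose and 1 fell in EZH2 KO, beside 12% and 3.69% of all genes. In SUZ12 KO 3 rose and 2 fell, beside 14.7% and 5.87%. NDRG1, a stress-induced gene of differentiation, was at 2.27, 2.295 and 5.32 CPM in controls, 15.5, 22.4 and 15.5 in EZH2 KO and 27.3, 19.4 and 20.9 in SUZ12 KO libraries. It rose by 2.52 (SE 0.425, adjusted p = 0.00247) in EZH2 KO and 2.84 (SE 0.429, adjusted p = 0.000959) in SUZ12 KO. P4HA2 was at 3.17, 3.25 and 3.32 CPM in controls, 23.1, 54.97 and 15.7 in EZH2 KO and 23.6, 35.4 and 13.1 in SUZ12 KO libraries. Its log2 fold changes were 3.36 (SE 0.798, adjusted p = 0.0155) in EZH2 KO and 2.95 (SE 0.787, adjusted p = 0.0205) in SUZ12 KO. P4HA1, which encodes the other common catalytic subunit of collagen prolyl hydroxylase, was at 117, 128 and 71.6 CPM in controls, 49.4, 48.9 and 45.8 in EZH2 KO and 42.8, 37.2 and 45.2 in SUZ12 KO libraries. It fell by 1.05 (SE 0.241, adjusted p = 0.0133) in EZH2 KO and 1.27 (SE 0.243, adjusted p = 0.00366) in SUZ12 KO. P4HA1 and P4HA2 moved in opposite directions in both KOs, with no overlap between KO and control libraries for either. VEGFA was at 248, 242 and 124 CPM in controls, 371, 350.3 and 448 in EZH2 KO and 476, 371 and 350.1 in SUZ12 KO libraries. It rose by 1.02 (SE 0.2501, adjusted p = 0.0183) in EZH2 KO and 1.04 (SE 0.2501, adjusted p = 0.0127) in SUZ12 KO, and the parental library was the lowest of the controls.

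ADM was at 8.89, 7.65 and 8.31 CPM in controls, 3.400, 3.202 and 1.71 in EZH2 KO and 2.91, 0.631 and 1.395 in SUZ12 KO libraries, and all 6 KO libraries lay under the controls. It fell in SUZ12 KO, with log2 fold changes of −1.49 (SE 0.652, adjusted p = 0.148) in EZH2 KO and −2.26 (SE 0.673, adjusted p = 0.0337) in SUZ12 KO. CA9, with at most 1 count in each control, was at 1.63, 12.5 and 1.94 CPM in EZH2 KO libraries, at least 30.4-fold higher (adjusted p = 0.0466). In SUZ12 KO libraries it was at 3.73, 0 and 3.596 CPM, with a mean at least 13.9 times the controls, which did not pass (adjusted p = 0.0716), and SUZ12 KO library 2 had 0 counts. ANKRD37, a small ankyrin-repeat gene known as a HIF target, was low throughout, at 0.453, 0.893 and 0.443 CPM in controls, 1.63, 3.26 and 1.33 in EZH2 KO and 1.65, 1.397 and 1.07 in SUZ12 KO libraries. For ANKRD37 the log2 fold changes were 1.88 (SE 0.485, adjusted p = 0.0226) in EZH2 KO and 1.27 (SE 0.484, adjusted p = 0.0848) in SUZ12 KO. BNIP3, BNIP3L and KDM3A were called in neither KO.

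EZH2 KO and SUZ12 KO cells were also set directly against each other, a contrast that needs no control. They differed in 0 of 39 members by edgeR, beside 0.00661% of all genes, and in 0 by DESeq2, beside 20 genes. The 1 gene that edgeR called was EZH2 itself, −2.32 (SE 0.205, adjusted p = 0.00186). SUZ12, the gene edited in the other arm, was not called, 1.73 (SE 0.231, adjusted p = 0.0663). A count of 0 thus does not show that the 2 KOs were alike. At an unadjusted p under 0.05 they differed in 0 members, beside 4.16% of all genes. The fitted difference ran from −0.70 for SLC16A3 to 1.16 for CA9 (SE 0.634 and 1.48). Clones of 1 genotype spread several-fold. EZH2 KO library 2 had the highest level of ALDOC, PDK1, PDK3, CA9, BNIP3, ANKRD37 and P4HA2 among the 3 EZH2 KO libraries. SUZ12 KO library 3 had the lowest of ALDOC, PDK1, PDK3, SLC16A3 and P4HA2 among the 3 SUZ12 KO libraries. The counts depended on libraries of the same fit. EZH2 KO had 7 calls without WT clone library 1 and 19 (12 higher, 7 lower) without STAG2 KO library 5. SUZ12 KO had 7 without WT clone library 1, 8 without WT clone library 2, the parental library or SUZ12 KO library 1, and 21 (11 higher, 10 lower) without STAG2 KO library 5. Without that library, GAPDH, TPI1, LDHB and ADM were lower in both KOs, GPI lower in EZH2 KO, and PGAM1, ENO1 and PKM lower in SUZ12 KO, and the calls over all genes rose from 2377 to 3885 in EZH2 KO and from 3112 to 4797 in SUZ12 KO.

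STAG1 KO cells had 0 higher and 6 lower (15.4%) of 39 members, beside 2.77% and 2.5% of 14373 genes. The median was −0.03 for members and 0.00 for all genes, and 2 controls were sequenced. HK2, the inducible hexokinase, was at 53.3 and 54.6 CPM in controls and 35.4, 27.04 and 31.9 in STAG1 KO libraries, a change of −0.78 (SE 0.133, adjusted p = 0.0358). ALDOC was at 105 and 84.3 CPM in controls and 26.2, 39.2 and 44.1 in STAG1 KO libraries, a change of −1.37 (SE 0.225, adjusted p = 0.0327), and ENO2 at 212 and 186 CPM in controls and 57.3, 88.7 and 72.9 in STAG1 KO libraries, a change of −1.45 (SE 0.183, adjusted p = 0.0239). These isoform genes serve an early, a middle and a late step of the path, and the sister isoforms HK1 (0.16, adjusted p = 0.488), ALDOA (0.12, adjusted p = 0.491) and ENO1 (0.14, adjusted p = 0.58) were not called. VEGFA was at 477 and 394 CPM in controls and 234, 223 and 260.0 in STAG1 KO libraries, a change of −0.87 (SE 0.1201, adjusted p = 0.0264). BNIP3, a receptor for the removal of mitochondria related to BNIP3L, was at 95.8 and 95.98 CPM in controls and 40.2, 47.7 and 58.99 in STAG1 KO libraries, a change of −0.97 (SE 0.159, adjusted p = 0.0327), and BNIP3L at 224 and 219 CPM in controls and 136, 153 and 165 in STAG1 KO libraries, a change of −0.55 (SE 0.103, adjusted p = 0.042). For all 6 genes the 3 KO libraries lay under both controls, including KO library 1, whose STAG1 RNA was at the level of the controls. Some larger fitted changes missed the threshold. Among them were those of PDK3, at 13.7 and 16.6 CPM in controls and 0.694, 1.58 and 4.21 in STAG1 KO libraries, −2.79 (SE 0.623, adjusted p = 0.0594), and of EGLN3, at 0.974 and 1.16 CPM in controls and 0.189, 0.327 and 0.154 in STAG1 KO libraries, −2.23 (SE 0.4703, adjusted p = 0.0534). CA9 was at 12.3 and 10.5 CPM in controls and 1.14, 4.96 and 4.26 in STAG1 KO libraries, −1.72 (SE 0.537, adjusted p = 0.119), and EPAS1 at 0.541 and 0.534 CPM in controls and 0.694, 3.27 and 2.92 in STAG1 KO libraries, 2.09 (SE 0.714, adjusted p = 0.141), with the KO libraries above the controls for EPAS1 and under them for CA9. SLC16A3 was at 14.3 and 11.2 CPM in controls and 21.3, 21.3 and 20.3 in STAG1 KO libraries, 0.72 (SE 0.164, adjusted p = 0.0625), with the KO libraries above the controls. NDRG1 was at 4.003 and 9.03 CPM in controls and 7.45, 33.4 and 25.96 in STAG1 KO libraries, 1.77 (SE 0.677, adjusted p = 0.174), with KO libraries 5 and 7 above the controls and library 1 between them. The count of calls was 12 (3 higher, 9 lower) without KO library 1 and 1 without KO library 5. Over all genes the calls went from 757 to 1310 without KO library 1 and to 264 without KO library 5. Leaving out a control leaves 1 control in the fit. DESeq2 called 14 members, beside 1914 genes.

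A contrast set the STAG2 KO effect against the STAG1 KO effect, since cells without either subunit still have the other. It gave 0 of 39 members by edgeR, beside 6.01% of 15041 genes. At an unadjusted p under 0.05 it gave 11 members (28.2%), beside 19.2% of all genes. DESeq2 gave 4 members and 1554 genes, and without STAG2 KO library 5 edgeR gave 6 members and 1861 genes. The fitted difference ran from −3.87 (SE 1.201, adjusted p = 0.0767) for SLC16A3 to 3.01 (SE 1.25, adjusted p = 0.195) for PDK3. For ADM it was −1.80 (SE 0.652, adjusted p = 0.134), and for BNIP3 1.33 (SE 0.422, adjusted p = 0.0841).

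**Figure D3:**
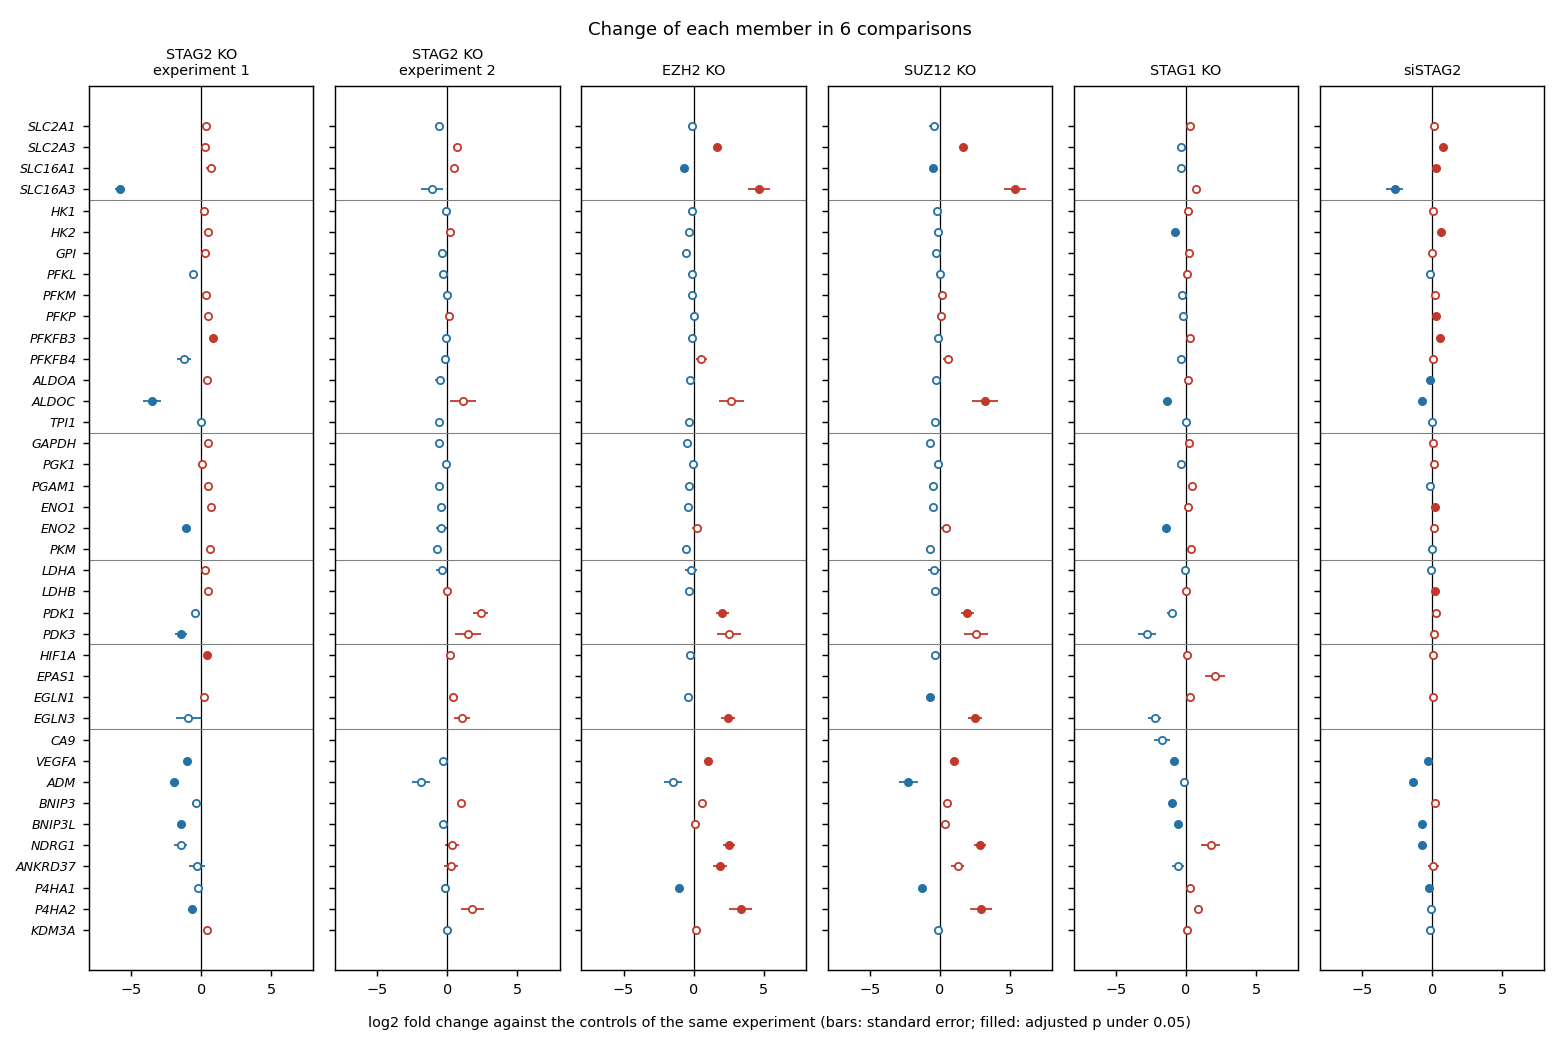
Log2 fold change of each member against the controls of its own experiment, with bars of 1 SE and filled points for an adjusted p under 0.05, and no point where a member was not tested or a group was at 3 counts or fewer in every library. SLC16A3 lies at −5.79 in STAG2 KO cells of experiment 1, where both KO libraries lay just above the floor of 3 counts. It lies at −2.66 after siSTAG2, and at 4.66 and 5.36 in EZH2 KO and SUZ12 KO cells.

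Knockdown of STAG2 by siRNA lowers the gene without the growth of clones. Values are reads scaled by the authors, and fold changes are of log2(value + 1), which understates those of low genes. Of 36 members tested by limma, 7 were higher (19.4%) and 8 lower (22.2%), beside 9.54% and 11% of 12060 genes. The median was 0.02 for members and 0.01 for all genes. Of the 8 that fell, ADM, BNIP3L, NDRG1, VEGFA and P4HA1 belong to the 10 other genes known to respond to low oxygen. Of these 10, 9 were tested, and BNIP3, ANKRD37, P4HA2 and KDM3A were not called. Carriers and glycolytic enzymes, which HIF-α also raises, moved in both directions. ADM had 144, 158 and 171 normalised reads in siC and 64.3, 62.1 and 57.96 in siSTAG2 libraries, a change of −1.34 (SE 0.136, adjusted p = 3.2e-08). BNIP3L had 872, 981 and 899 normalised reads in siC and 524, 625 and 527 in siSTAG2 libraries, a change of −0.72 (SE 0.0753, adjusted p = 6.39e-08). For both genes the groups lay well apart, with a narrow spread within each. NDRG1 had 36.2, 36.4 and 47.9 normalised reads in siC and 24.4, 26.9 and 21.3 in siSTAG2 libraries, a change of −0.70 (SE 0.2303, adjusted p = 0.0303), and VEGFA had 259, 269.6 and 274 normalised reads in siC and 192, 232 and 221 in siSTAG2 libraries, a change of −0.32 (SE 0.0963, adjusted p = 0.0189). SLC16A3 had 13.3, 38.4 and 12.5 normalised reads in siC and 0, 9.27 and 1.93 in siSTAG2 libraries, a change of −2.66 (SE 0.606, adjusted p = 0.00222). Its spread within each group was wide, and the groups did not overlap. ALDOC had 145, 189.9 and 134 normalised reads in siC and 74.3, 121 and 87.9 in siSTAG2 libraries, a change of −0.74 (SE 0.156, adjusted p = 0.00114). P4HA1 changed by −0.25 (SE 0.0804, adjusted p = 0.0259) and ALDOA by −0.18 (SE 0.0655, adjusted p = 0.0455), and the libraries of ALDOA overlapped, with 3511, 3087 and 3179 normalised reads in siC and 3182, 2774 and 2658 in siSTAG2 libraries.

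The largest rises after knockdown were of SLC2A3, HK2 and PFKFB3, which bring glucose in, trap it and speed phosphofructokinase. SLC2A3 had 133, 114 and 107 normalised reads in siC and 196, 208 and 199 in siSTAG2 libraries, a change of 0.77 (SE 0.115, adjusted p = 1.78e-05). HK2 had 181, 181 and 201 normalised reads in siC and 267, 321 and 278 in siSTAG2 libraries, a change of 0.62 (SE 0.0986, adjusted p = 4.45e-05), and PFKFB3 had 460.4, 530.4 and 478 normalised reads in siC and 667, 827 and 703 in siSTAG2 libraries, a change of 0.58 (SE 0.0806, adjusted p = 6.65e-06). For the 7 members that rose, the siSTAG2 libraries lay above all siC libraries. The other changes were of SLC16A1, 0.28 (SE 0.0582, adjusted p = 0.000848), the platelet-type phosphofructokinase PFKP, 0.24 (SE 0.0649, adjusted p = 0.00889), LDHB, 0.18 (SE 0.0554, adjusted p = 0.0202), and ENO1, 0.17 (SE 0.06297, adjusted p = 0.0495). ENO1 had 25648, 27649 and 23813 normalised reads in siC and 29012, 29525 and 28353 in siSTAG2 libraries, so its rise was small beside its level. HIF1A had 498, 535 and 501 normalised reads in siC and 507, 553 and 546 in siSTAG2 libraries and was not called. CA9, EPAS1 and EGLN3 were under the minimum mean value of 10 and not tested, and CA9 had at most 1 read per library. Without siC library 3, 8 members were called, 4 in each direction.

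The knockdown and the STAG2 KO of experiment 1 share no library. Of the 36 members tested in both, 6 were called in the same direction in both (ADM, ALDOC, BNIP3L, PFKFB3, SLC16A3 and VEGFA), 60% of the 10 called in experiment 1 and 40% of the 15 called after knockdown. For all genes the shares were 35.8% and 44.1%, from 1053 genes. Side by side, SLC16A3 changed by −5.79 in these clones and −2.66 after knockdown, ALDOC by −3.51 and −0.74, ADM by −1.93 and −1.34, and VEGFA by −1.03 and −0.32. In these clones the KO libraries of SLC16A3 lay just above the floor of 3 counts. The differences in size were not tested.

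**Figure D4:**
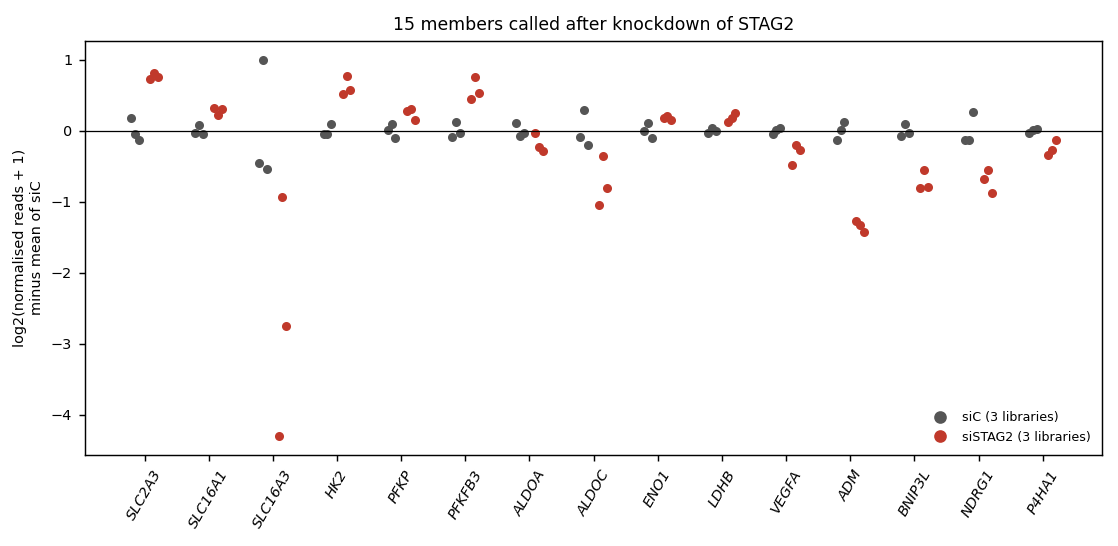
The 15 members called after knockdown of STAG2, as log2(normalised reads + 1) of each library minus the mean of the 3 siC libraries, in grey for siC and red for siSTAG2. The 3 siSTAG2 points of ADM lie more than 1 below the siC mean, and those of SLC16A3 spread widely below it.

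The SK-N-MC and A4573 pairs have 1 library per arm, so their ratios have no replicate check and carry no p-value. Past 2-fold, 6 of 38 members were higher (15.8%) and 2 lower (5.26%) in SK-N-MC cells without STAG2, beside 10.2% and 11.4% of 16413 genes. The median log2 ratio was 0.33 for members and −0.01 for all genes. In A4573 cells, 0 of 38 members were higher and 9 lower (23.7%) without STAG2, beside 7.76% and 14.1% of 16124 genes, with medians of −0.11 and 0.00. ADM was lower without STAG2 in both pairs. It had 37.2 CPM with and 11.2 without STAG2 in SK-N-MC, a log2 ratio of −1.73, and 16.01 CPM with and 3.19 without STAG2 in A4573, a log2 ratio of −2.31. No other member was past 2-fold in the same direction in both pairs.

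PDK1 and P4HA2 differed in direction between the pairs. PDK1 had 6.07 CPM with and 15.8 without STAG2 in SK-N-MC and 91.8 CPM with and 27.9 without STAG2 in A4573, log2 ratios of 1.37 and −1.71. P4HA2 had 2.22 CPM with and 7.203 without STAG2 in SK-N-MC and 31.7 CPM with and 5.64 without STAG2 in A4573, log2 ratios of 1.67 and −2.48. With 1 library per arm the difference between the pairs was not tested. In SK-N-MC the other members past 2-fold higher without STAG2 were HK1, the common hexokinase, PFKFB4, BNIP3 and CA9. HK1 had 12.2 CPM with and 32.8 without STAG2, PFKFB4, a sister gene of PFKFB3, had 3.703 CPM with and 9.33 without STAG2, and BNIP3 had 34.8 CPM with and 70.5 without STAG2. CA9 rested on 2 counts with and 12 without STAG2, a ratio of 6.47 with an exact 95% interval of 1.44 to 59.6 that covers counting error only. EPAS1 had 16.2 CPM with and 1.24 without STAG2, a log2 ratio of −3.64, and the SK-N-MC library with STAG2 had a higher CPM of EPAS1 than any A673 or A4573 library.

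In A4573 the widest gaps were in SLC16A3, P4HA2, VEGFA and ADM. VEGFA had 775 CPM with and 151 without STAG2, a log2 ratio of −2.36, with the most counts behind its ratio among members past 2-fold. SLC16A3 had 17 counts with and 1 without STAG2, a ratio of 0.0613 with an exact 95% interval of 0.00147 to 0.391. ALDOC had 2.71 CPM with and 0.763 without STAG2, ENO2 had 27.98 CPM with and 9.06 without STAG2, SLC2A3 had 20.8 CPM with and 7.602 without STAG2 and NDRG1 had 6.49 CPM with and 2.85 without STAG2, log2 ratios of −1.74, −1.62, −1.44 and −1.17. CA9 had 0 counts in both A4573 libraries. The trunk enzymes GAPDH (0.80) and PGAM1 (0.93) were higher without STAG2 in A4573, within 2-fold. Ewing sarcoma identity genes summed to 1943 CPM in SK-N-MC cells without and 2123 with STAG2, and to 1687 and 2740 in A4573. Genes that define other cell types summed to 92.9 CPM in SK-N-MC cells without and 29.7 with STAG2, and to 1.79 and 2.61 in A4573, and their part in these ratios was not tested.

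**Figure D5:**
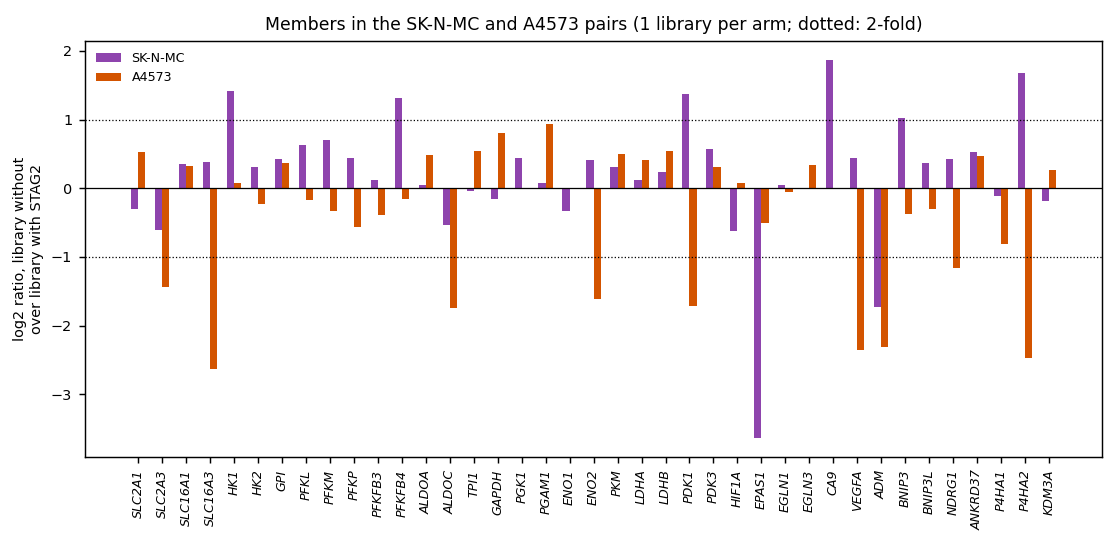
Log2 ratio of normalised CPM in the library without STAG2 over the library with STAG2 for each member, in purple for SK-N-MC and orange for A4573, with dotted lines at 2-fold. ADM lies under the lower line in both pairs (−1.73 and −2.31), while PDK1 and P4HA2 lie above the upper line in SK-N-MC and under the lower line in A4573.

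The replicated comparisons called 12 members in none, SLC2A1, HK1, GPI, PFKM, PFKFB4, TPI1, GAPDH, PGK1, PGAM1, PKM, LDHA and KDM3A. Most are general carriers or enzymes of the path. Over all 22 A673 libraries their highest value was at most 6.04 times the lowest (PFKFB4). For SLC16A3 that ratio was 284, for CA9 92.3, for ALDOC 42.7 and for PDK3 29.5, with values under 3 counts set to 3 counts, and part of such a ratio in a low gene is counting error. PDK3 and HIF1A were called in experiment 1 alone.

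A list of 68 other genes of glucose use and the hypoxia response was counted beside the members. In STAG2 KO cells 3 of 56 tested rose and 3 fell, beside 5.87% and 6.34% of all genes. In EZH2 KO 10 of 59 rose and 2 fell, beside 12% and 3.69%. In SUZ12 KO 13 of 59 rose and 3 fell, beside 14.7% and 5.87%. In STAG1 KO 2 of 57 rose and 3 fell, beside 2.77% and 2.5%. After siSTAG2 3 of 48 rose and 6 fell, beside 9.54% and 11%. In STAG2 KO the largest rise among them was of SLC16A7, a further carrier of the lactate family, 4.22 (SE 0.864, adjusted p = 0.00937), with 0.116 to 0.8288 CPM in controls and 0.843 to 18.5 in KO libraries. The largest fall was of BHLHE41, a repressor in the clock, −1.77 (SE 0.447, adjusted p = 0.0256). KDM4C, a histone demethylase, rose by 0.91 (SE 0.2199, adjusted p = 0.0203). Within experiment 1 TXNIP, a glucose-induced gene that restrains glucose uptake, had 169 to 297 CPM in controls and 12.4 to 39.4 in KO libraries, −3.28 (SE 0.562, adjusted p = 0.0162). ARNT2, a partner subunit of HIF-α, rose by 5.06 (SE 0.934, adjusted p = 0.00398) in EZH2 KO and 5.23 (SE 0.938, adjusted p = 0.00247) in SUZ12 KO cells, from 0.113 to 0.222 CPM in controls. SLC2A10, a further sugar carrier, had 0 counts in the controls and was at least 3.88-fold higher in SUZ12 KO (adjusted p = 0.024). PLOD1, a collagen lysyl hydroxylase, changed by −0.85 (SE 0.227, adjusted p = 0.0266) in EZH2 KO and −1.19 (SE 0.228, adjusted p = 0.00369) in SUZ12 KO, and CREBBP, a coactivator of HIF, by −0.57 (SE 0.126, adjusted p = 0.0109) and −0.47 (SE 0.126, adjusted p = 0.0221). CXCR4, a chemokine receptor known to respond to hypoxia, rose in EZH2 KO, 4.56 (SE 1.21, adjusted p = 0.0317), from 0 to 0.255 CPM in controls to 0.616 to 8.84 in KO libraries. It fell in STAG1 KO, −4.47 (SE 0.703, adjusted p = 0.0298), from 2.38 to 8.76 CPM in controls to 0.154 to 0.379 in KO libraries. The lower group of each comparison was close to the floor, and the controls of the 2 experiments differed.

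In STAG1 KO cells GBE1, the glycogen branching enzyme, rose by 2.11 (SE 0.2100, adjusted p = 0.0181) and BHLHE40, a hypoxia-induced repressor, by 1.73 (SE 0.255, adjusted p = 0.0268), while ARRDC4, a glucose-responsive arrestin gene, changed by −3.65 (SE 0.449, adjusted p = 0.0239). After siSTAG2, DDIT4, a stress-induced inhibitor of mTOR, changed by −0.80 (SE 0.153, adjusted p = 0.000388) and HIF3A by −1.07 (SE 0.2501, adjusted p = 0.00271). MXI1, an antagonist of MYC, rose by 0.39 (SE 0.107, adjusted p = 0.00989) and PGM2 by 0.39 (SE 0.127, adjusted p = 0.0308). Of 23 genes of mitochondrial pyruvate use and the citrate cycle, 1 rose and 1 fell in STAG2 KO, 1 fell in EZH2 KO, 1 rose in SUZ12 KO, 1 rose in STAG1 KO, and 2 rose and 1 fell after siSTAG2. Over all genes the shares were 5.87% and 6.34% in STAG2 KO, 12% and 3.69% in EZH2 KO and 14.7% and 5.87% in SUZ12 KO. They were 2.77% and 2.5% in STAG1 KO and 9.54% and 11% after siSTAG2, with higher first. In STAG2 KO FH, fumarate hydratase, rose by 0.38 (SE 0.1096, adjusted p = 0.046) and SDHA, a subunit of succinate dehydrogenase, changed by −0.34 (SE 0.0866, adjusted p = 0.0271). In EZH2 KO DLST changed by −0.42 (SE 0.104, adjusted p = 0.0197), in SUZ12 KO OGDH by 0.49 (SE 0.147, adjusted p = 0.0331) and in STAG1 KO PDHX by 0.49 (SE 0.08404, adjusted p = 0.036). DLST, OGDH and PDHX belong to the complexes that decarboxylate pyruvate or its relative in the citrate cycle. After siSTAG2, PDHA1 changed by 0.22 (SE 0.0614, adjusted p = 0.0113), and the isocitrate dehydrogenase genes IDH3A by 0.22 (SE 0.0666, adjusted p = 0.0207) and IDH2 by −0.18 (SE 0.0646, adjusted p = 0.0457).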

How the data were processed

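RNA-seq of A673, SK-N-MC and A4573 cells was analysed from the processed tables. For the clones and isogenic pairs the authors deposited raw counts per gene symbol, from 86-nt single-end reads of oligo-dT primed, non-directional libraries. The submitters' processing notes name TopHat2 2.0.0, Bowtie 0.12.7, SAMtools 0.1.16, FastQC, DESeq2 and hg38, without their roles. For the knockdown the deposited signal values are reads divided by the authors' size factors, and whole reads were recovered for 100% of values within 0.01 of a read. All columns of values were used. Libraries were grouped by their labels, and 7 columns could be assigned to a group but not to a numbered library.

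Counts were scaled by TMM (given as CPM), filtered by filterByExpr and tested with the quasi-likelihood test of edgeR 4.0.16 in R 4.3.3. Effects in STAG2 KO cells were fitted with the experiment as a term, EZH2 KO and SUZ12 KO in 1 fit of the 12 libraries of experiment 2, and STAG1 KO within experiment 3. Knockdown values were tested as log2(value + 1) with limma 3.58.1 and a mean trend, for genes with a mean of at least 10. Benjamini-Hochberg adjustment covered all genes tested, and genes under an adjusted p of 0.05 were called. Pairs with 1 library per arm were compared as log2 ratios with a prior count of 2, for genes with at least 10 counts over the pair, with no test. A floor of 3 counts per library bounds folds against groups near 0. Intervals and floors cover counting error only. The tests were checked on simulated counts with known changes. DESeq2 1.42.0, other scalings, filters, pseudocounts, control sets, prior counts and leaving out each library were alternatives.

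The 39 members and the other gene lists were chosen with earlier results of these data known. Members called in a replicated comparison are given with their values, the others by range and count, and of each other list the 2 called genes with the highest and the 2 with the lowest log2 fold change in a comparison. A gene that this rule names is not reported here. Of those, genes of experiment 1 alone are given by 1 example, chosen after its values were seen. Promoter windows are from RefSeq, and positions and overlaps from GENCODE 44 (GRCh38).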

Additional observations from a re-analysis of the deposited data

Results flagged for a closer look

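Of 78 groups of 5 or 6 libraries tested (each member in the controls and in the STAG2 KO cells of experiments 1 and 2), 16 held a library far from the others by Dixon's ratio. Chance gives about 1 in 20 where groups are independent, and these groups share the same libraries. The groups span both experiments, and the spread between experiments is part of each. STAG2 KO library 5 of experiment 2 gave 8 of the 16. It was the highest of the 5 STAG2 KO libraries for SLC16A3 (0.783 normalised CPM, next 0.262), ALDOC (44.7, next 10.6), PDK1 (60.6, next 24.96), PDK3 (13.98, next 2.98) and CA9 (2.24, all others 0, so that any value above 0 is flagged). It was the lowest for the trunk enzymes GAPDH (1957, next 3758), PGAM1 (316, next 665) and ENO1 (1568, next 3121).

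STAG2 KO library 24 of experiment 1 was the highest of the 5 for SLC16A1 (452 normalised CPM, next 278), PFKFB3 (171, next 106) and EPAS1 (0.618, next 0.173). STAG2 KO library 2 of experiment 2 was the highest for BNIP3 (137, next 92.1) and ANKRD37 (0.939, next 0.633). Among the 6 controls, the parental library of experiment 2 was the highest for PFKFB3 (153.8, next 96.3), the parental library of experiment 1 for PFKFB4 (23.8, next 11.1) and WT clone library 2 of experiment 2 for HIF1A (236, next 204). The causes were not tested.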

How the results depend on the processing

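For STAG2 KO the 3 members called became 7 with DESeq2, 11 in experiment 1 alone, 0 in experiment 2 alone, 1 where both WT clone libraries of experiment 1 were added together, and 1 to 13 with 1 library left out. For EZH2 KO the 12 members became 7 to 19 with 1 library left out. For SUZ12 KO the 13 became 8 with the WT clone as the only control and 7 to 21 with 1 library left out. For STAG1 KO the 6 became 14 with DESeq2, 0 with the WT clone as the only control and 0 to 12 with 1 library left out. The 0 members that differed between the STAG2 KO and STAG1 KO effects became 4 with DESeq2, 2 by library size alone and 0 to 6 with 1 library left out, and the 0 between experiments 1 and 2 became 10 with DESeq2 and 0 to 7. After siSTAG2 the 15 became 8 to 18. The causes were not tested. EZH2 KO against SUZ12 KO gave 0 under every alternative, and the isogenic pairs kept within 1.5 times their counts of 8 and 9.

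No called member changed sign under an alternative. The members called under every alternative were 0 of 3 in STAG2 KO, 5 of 12 in EZH2 KO, 6 of 13 in SUZ12 KO, 0 of 6 in STAG1 KO and 8 of 15 after siSTAG2. Over all genes, the 1736 called in STAG2 KO became 3663 in experiment 1 alone, 494 in experiment 2 alone and 1115 to 4219 with 1 library left out. The 2377 in EZH2 KO became 1441 with the WT clone as the only control and 1169 to 3885 with 1 library left out, the 3112 in SUZ12 KO 1874 to 4797, and the 757 in STAG1 KO 1914 with DESeq2 and 0 to 1310. DESeq2 also called 1554 against 904 genes between the STAG2 KO and STAG1 KO effects, 2216 against 0 between experiments and 20 against 1 between EZH2 KO and SUZ12 KO.

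The labels do not say whether same-numbered siC and siSTAG2 libraries are pairs. Their deviations correlated at 0.0257, 0.0372 and 0.00402, and the main test did not pair them. With the number as a replicate block 16 members were called, 7 higher and 9 lower, and 2881 against 2476 genes. Depth limits CA9, EPAS1, EGLN3 and ANKRD37, which had few or no counts in some groups.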
